A study of Homo sapiens with 4 samples.

Results

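The 10 genes described here encode subunits of SWI/SNF, also called BAF, complexes, and were chosen by name. They were the ATPases SMARCA4 and SMARCA2, the core and scaffold subunits SMARCB1, SMARCC1, SMARCC2 and SMARCD1, the ARID1 subunits ARID1A and ARID1B, and the neuronal subunits ACTL6B and DPF1. All 10 were in the table, which lists 16376 genes. RNA came from LASCPC-01, an established human neuroendocrine prostate cancer (NEPC) cell line made by combined expression of NMYC and activated AKT1, so both groups carried these drivers. Cells labelled WT in genotype received either PBS, the vehicle, or fluoxetine, a selective serotonin reuptake inhibitor, and each group had 2 libraries labelled day 3, while the study's text gives 5 µM and 48 h. The comparison asked what fluoxetine changed in the transcriptome of NEPC cells. Nothing in the labels says that the 2 libraries of a group came from separate cultures, so the p-values measure only the spread between these libraries, in a single cell line.

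SWI/SNF complexes use the energy of ATP to slide or evict nucleosomes, which opens enhancers and promoters to transcription factors. Each complex holds 1 ATPase, either SMARCA4 or SMARCA2, on a core that contains SMARCC and SMARCD proteins. In the canonical BAF form, which the ARID1 proteins mark, the core also contains SMARCB1. As neural progenitors leave the cell cycle and become neurons, ACTL6A is replaced by ACTL6B, the DPF2 and PHF10 subunits by DPF1 or DPF3, and SS18 by SS18L1. The balance within such paralogue pairs is therefore a common way to describe which complexes a cell can build.

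The values are FPKM, read fragments scaled to a common gene length and library depth, so levels of different genes are compared per length. The FPKM were divided by 32873603 and 34756748 fragments in the PBS libraries and by 34806710 and 34831389 in the fluoxetine libraries, and 1 read on 1 kilobase was worth 0.0287 to 0.0304 FPKM. Of 9 neuroendocrine markers, 3 had a mean of at least 1 FPKM (NCAM1, ENO2 and INSM1), while the classical markers CHGA and SYP had means of 0.0401 and 0.451 FPKM. The summed level of these 9 was 76.7 to 78.4 FPKM in the PBS libraries and 69.8 to 73.7 in the fluoxetine libraries. NCAM1, the most abundant, had 52.0 and 51.2 FPKM under PBS and 44.3 and 47.1 under fluoxetine, while INSM1 had 22.9 and 21.7 and then 22.8 and 24.2, with overlapping groups. Of 5 luminal genes, 3 reached a mean of 1 FPKM (TMPRSS2, KRT8 and KRT18). The list of 5 summed to 784 to 837 FPKM under PBS and 847 to 902 under fluoxetine. KRT8 and KRT18, with means of 442 and 386 FPKM, made up nearly all of this sum, while KLK3 and KLK2 had means of 0.138 and 0.126. KRT8 had 434 and 412 FPKM under PBS and 475 and 446 under fluoxetine, and the groups overlapped for KRT18 and TMPRSS2. Of the 12663 genes tested below, 24.8% had both fluoxetine libraries below both PBS libraries, as NCAM1 did. For 16.7% they lay above, as for KRT8. All listed genes together summed to 364705 and 355729 FPKM under PBS and 379048 and 365732 under fluoxetine. The differences of the marker sums between groups were not tested. Lists for basal, fibroblast, leukocyte and endothelial cells summed to at most 3.99 FPKM in any library. The part of these marker levels in the values below was not tested, and in bulk RNA fewer cells of a type and less RNA per cell cannot be told apart.

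The 8 common subunits were well expressed and the 2 neuronal subunits were not. Mean levels over the 4 libraries ran from 89.5 FPKM for SMARCA4 and 74.2 for SMARCC1 through 42.4 for SMARCC2, 36.7 for ARID1A, 35.0 for SMARCB1, 24.9 for SMARCD1, 15.0 for SMARCA2 and 13.0 for ARID1B. DPF1 followed at 1.83 FPKM and ACTL6B was last at 0.0097. Among neighbours in this order, the ranges over the 4 libraries overlapped for SMARCC2 and ARID1A, for ARID1A and SMARCB1, and for SMARCA2 and ARID1B, and the other neighbours were apart in all 4 libraries. SMARCB1 exceeded ARID1A in 1 library. SMARCA4 stood at percentile 95.9 of the listed genes, ARID1B at 71.1, DPF1 at 40.2 and ACTL6B at 9.9.

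**Figure D1:**
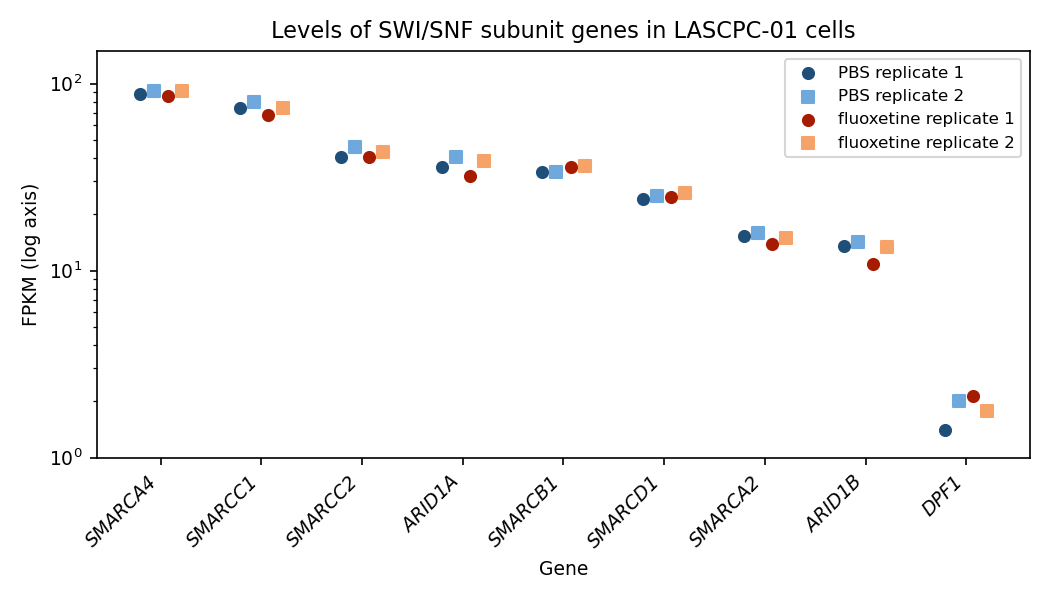
Level of 9 SWI/SNF subunit genes (vertical axis, FPKM, log scale) in each of the 4 libraries, with blue points for PBS and red or orange points for fluoxetine, and genes ordered by mean level. SMARCA4 lies between 86.2 and 91.9 FPKM and DPF1 between 1.41 and 2.13, and the points of both groups lie close together for each gene, while ACTL6B, at 0 in 2 libraries, is left out.

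None of the 9 subunits that passed the filter of a mean of at least 0.1 FPKM passed the test of fluoxetine against PBS. With limma on log2(FPKM + 0.1), a scale that understates changes of low genes, 0 of 9 had an adjusted p under 0.05, against 0.237% of the 12663 genes tested, and the smallest adjusted p among them was 0.580 for ARID1B. At an unadjusted p under 0.05 the count was also 0 of 9, against 8.51% of all genes tested. The log2 fold changes of the 9 ran from -0.21 for ARID1B to 0.20 for DPF1 with a median of -0.05, against a median of -0.02 for all genes tested, and 6 of 9 lay below 0, against 56.5% of all genes tested. Both fluoxetine libraries lay below both PBS libraries for 3 subunits, SMARCA2, SMARCC1 and ARID1B, a pattern that 24.8% of all genes tested also showed. They lay above for SMARCB1 alone, against 16.7% of all genes tested, and the groups overlapped for the other 5. A test on the reads recovered from the FPKM (limma with voom) gave 0 of 9 at an adjusted p under 0.05, against 0.383% of the genes tested that way, and 1 of 9, ARID1B, at an unadjusted p under 0.05, against 10.7%.

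**Figure D2:**
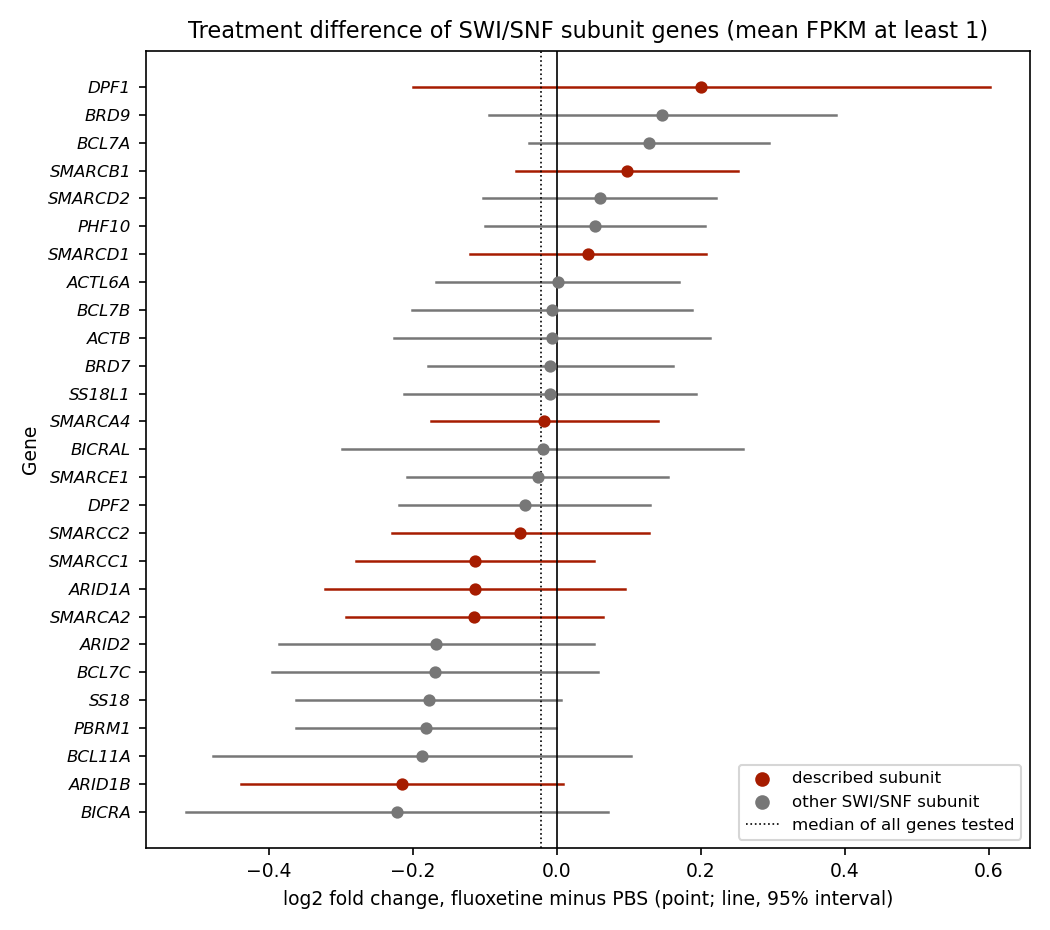
Log2 fold change of fluoxetine minus PBS on log2(FPKM + 0.1) (horizontal axis) for SWI/SNF subunit genes with a mean of at least 1 FPKM, as a point with its 95% limma interval, in red for the 9 described subunits and in grey for other subunits. The interval includes 0 for all 9 red genes, from ARID1B at -0.21 to DPF1 at 0.20, and the dotted line marks the median of all genes tested, -0.02.

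SMARCA4 (ENSG00000127616.18), also known as BRG1, was the dominant ATPase gene. It lies at chr19:10960825-11079426 on the plus strand (GRCh38, GENCODE 29, as for all genes below). Its level was 88.2 and 91.9 FPKM with PBS and 86.2 and 91.8 FPKM with fluoxetine. The groups overlapped almost completely, with means of 90.0 ± 2.61 and 89.0 ± 3.98 FPKM (SD, n = 2 each), and the log2 fold change was -0.02 (SE 0.07, 95% interval -0.17 to 0.14, limma adjusted p = 0.964). The read numbers of 17569 to 19381 per library give a counting error of at most 0.754%, so depth was not the limit.

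SMARCA2 (ENSG00000080503.23), or BRM, is the alternative ATPase and lies at chr9:1980290-2193624 on the plus strand. It was measured at 15.3 and 16.0 FPKM under PBS and at 13.97 and 14.9 under fluoxetine. Both fluoxetine libraries were the lower ones, but the log2 fold change of -0.11 (SE 0.08, 95% interval -0.29 to 0.06) did not pass the test (limma adjusted p = 0.678). It was -0.069 without fluoxetine replicate 1, -0.16 without fluoxetine replicate 2 and -0.049 with the length trend of each library removed. SMARCA4 thus made up 85.24% and 85.19% of the summed FPKM of both ATPases under PBS and 86.05% in each fluoxetine library. On the log2 scale the ratio of SMARCA4 to SMARCA2 was 0.10 higher under fluoxetine, in both same-numbered pairs of libraries. The counting error of this difference was 0.027, and the exact permutation test (two-sided) gave p = 0.333, the smallest that 2 against 2 libraries allow. The replicate ratios lay closer together, with a pooled SD of 0.003, than the counting error of a single library's ratio, 0.026 to 0.027, so the spread of these replicates was smaller than counting alone gives.

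The promoters of both ATPase genes are shown because the genes differ in level, with SMARCA4 at 5.96 times SMARCA2, while both were well expressed. The windows run from 250 bases before to 50 bases after the gene's start in RefSeq (GRCh38.p14), read 5′ to 3′ on the gene's strand, at chr19:10960780-10961079 and chr9:2015097-2015396, both on the plus strand. Capitals mark the GC box GGGCGG or its reverse complement CCGCCC, the sequence bound by SP1-type factors.
SMARCA4 promoter: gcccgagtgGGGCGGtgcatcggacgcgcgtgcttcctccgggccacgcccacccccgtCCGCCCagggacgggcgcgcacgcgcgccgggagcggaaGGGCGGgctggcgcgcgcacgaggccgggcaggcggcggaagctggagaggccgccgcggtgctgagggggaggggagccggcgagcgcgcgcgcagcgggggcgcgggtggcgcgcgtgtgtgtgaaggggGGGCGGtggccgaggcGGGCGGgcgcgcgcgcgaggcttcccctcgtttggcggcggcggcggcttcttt
SMARCA2 promoter: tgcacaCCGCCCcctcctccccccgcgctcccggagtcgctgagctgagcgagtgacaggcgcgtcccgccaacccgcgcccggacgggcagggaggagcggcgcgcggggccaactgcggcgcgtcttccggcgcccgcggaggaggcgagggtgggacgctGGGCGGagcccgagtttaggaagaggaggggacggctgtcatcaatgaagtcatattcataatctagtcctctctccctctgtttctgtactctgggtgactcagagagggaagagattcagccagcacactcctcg
The SMARCA4 window holds 5 GC boxes and 55 CpG dinucleotides, more CpG than 99.6% of the 35116 RefSeq windows of this length. The SMARCA2 window holds 2 GC boxes and 30 CpG, more CpG than 77.6% of these windows. A link between these features and the levels was not tested. The SMARCA2 window starts inside the interval given above for the gene, at a start site that RefSeq uses.

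SMARCB1 (ENSG00000099956.19), the core subunit lost in malignant rhabdoid tumours, lies at chr22:23786931-23838008 on the plus strand and differed least between replicates of the 9 tested. It stood at 33.7 and 33.8 FPKM under PBS and at 35.9 and 36.3 under fluoxetine. Both fluoxetine libraries were higher, with means of 33.8 ± 0.108 and 36.1 ± 0.289 FPKM (SD, n = 2 each). The replicates differed by 0.01 and 0.02 on the log2 scale and the groups by 0.10. With the error that limma shares across genes of this level, the fold change had an SE of 0.07 and a 95% interval of -0.06 to 0.25 and did not pass (adjusted p = 0.680). Of the 75-base stretches of its exons, 16.27% occur in another gene as well, so part of its reads could have been counted elsewhere or not at all.

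SMARCC1 and SMARCC2 are the BAF155 and BAF170 scaffolds on which the complex assembles. SMARCC1 (ENSG00000173473.10, chr3:47585272-47782106, minus strand) was measured at 74.3 and 79.9 FPKM under PBS and 68.4 and 74.2 under fluoxetine. The groups were barely apart, since the higher fluoxetine value, 74.174, lay just under the lower PBS value, 74.287. Its log2 fold change was -0.11 (SE 0.08, 95% interval -0.28 to 0.05, limma adjusted p = 0.657). It ran from -0.055 without fluoxetine replicate 1 to -0.17 without fluoxetine replicate 2, and was -0.054 with the length trend described below removed. SMARCC2 (ENSG00000139613.11, chr12:56162983-56189567, minus strand) stood at 40.4 and 46.1 FPKM under PBS and 40.4 and 42.9 under fluoxetine, with overlapping groups. Its log2 fold change of -0.05 (SE 0.08, 95% interval -0.23 to 0.13, limma adjusted p = 0.871) was smaller than the 0.19 between the PBS replicates. SMARCC1 made up 64.8% and 63.4% of the pair under PBS and 62.9% and 63.3% under fluoxetine, a log2 ratio difference of -0.06 (exact permutation p = 0.333).

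SMARCD1 (ENSG00000066117.14, chr12:50084972-50100712, plus strand) encodes BAF60A, a subunit that links the complex to transcription factors. Its values were 24.1 and 24.9 FPKM under PBS and 24.6 and 25.9 under fluoxetine. The groups overlapped and the log2 fold change was 0.04 (SE 0.08, 95% interval -0.12 to 0.21, limma adjusted p = 0.879). Without fluoxetine replicate 2 it was 0.0078, and without fluoxetine replicate 1 it was 0.079. Of its paralogues, SMARCD2 was the more abundant at 91.5 and 88.0 FPKM under PBS and 97.7 and 89.6 under fluoxetine. SMARCD1 made up 20.8% and 22.1% of this pair under PBS and 20.1% and 22.4% under fluoxetine, with overlapping groups (log2 ratio difference -0.02, exact permutation p = 1.0). SMARCD3, the form known from muscle and heart, had only 0 and 1 reads under PBS and 9 and 4 under fluoxetine. The groups did not overlap, and the ratio of reads corrected for depth was 12.6 with a 95% counting interval of 1.90 to 537. This interval leaves out replicate differences beyond counting, so it does not test the treatment. SMARCD3 also overlaps 3 genes on the opposite strand, and 8.78% of its 75-base exon stretches occur in another gene. Its mean of 0.0477 FPKM was under the filter of the limma test. With voom on the recovered reads it did not pass (log2 fold change 2.88, adjusted p = 0.482).

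ARID1A (ENSG00000117713.19, chr1:26693236-26782110, plus strand), often mutated in cancer, and its paralogue ARID1B occupy the same place in BAF, 1 per complex. ARID1A was measured at 35.7 and 40.6 FPKM under PBS and at 32.2 and 38.4 under fluoxetine. The groups overlapped, and the log2 fold change of -0.11 (SE 0.10, 95% interval -0.32 to 0.09, limma adjusted p = 0.723) was below the replicate differences of 0.19 under PBS and 0.26 under fluoxetine. ARID1B (ENSG00000049618.23, chr6:156776020-157210779, plus strand) stood at 13.6 and 14.3 FPKM under PBS and at 10.8 and 13.3 under fluoxetine. Both fluoxetine libraries were lower, and fluoxetine replicate 1 was far below the other 3 libraries. Its log2 fold change was -0.21 (SE 0.10, 95% interval -0.44 to 0.01, limma adjusted p = 0.580). It was -0.07 without fluoxetine replicate 1 and -0.36 without fluoxetine replicate 2, so its size depended on which fluoxetine library was used. ARID1A made up 72.4% and 74.0% of the pair under PBS and 74.9% and 74.3% under fluoxetine. The log2 ratio was 0.10 higher under fluoxetine (exact permutation p = 0.333), by 0.18 between the libraries numbered 1 and by 0.02 between those numbered 2.

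The neuronal actin-like subunit ACTL6B (ENSG00000077080.9, BAF53B, chr7:100643097-100656461, minus strand) was at the detection limit. A single read fell on it in PBS replicate 1 and in fluoxetine replicate 2 and 0 in the other libraries, or at most 0.02 FPKM. With 2 reads in all (95% Poisson interval 0.242 to 7.22), no difference between groups was detectable at this depth, and it was under the filter of the test. Its ubiquitous counterpart ACTL6A was measured at 59.5 and 57.9 FPKM under PBS and 62.3 and 55.4 under fluoxetine. Per length, ACTL6A reads outnumbered ACTL6B reads by 6145 to 1, with a 95% exact counting interval of 1701 to 50747. The ACTL6A groups overlapped, with a log2 fold change of 0.00 (SE 0.08, limma adjusted p = 0.998).

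DPF1 (ENSG00000011332.19, BAF45B, chr19:38211006-38229714, minus strand), a neuronal PHD finger subunit, was present at a low level in every library. It had 117 and 175 reads under PBS and 187 and 156 under fluoxetine, which are 1.41 and 1.998 and then 2.13 and 1.78 FPKM. The groups overlapped, and the log2 fold change of 0.20 (SE 0.18, 95% interval -0.20 to 0.60, limma adjusted p = 0.747) was smaller than the 0.50 between the PBS replicates. DPF2, the widely expressed paralogue, stood at 31.5 and 35.3 FPKM under PBS and 33.0 and 31.6 under fluoxetine. DPF2 made up 95.7% and 94.6% of this pair under PBS and 93.9% and 94.7% under fluoxetine (log2 ratio difference -0.26, exact permutation p = 0.667). Over all libraries DPF2 was 18.0 times DPF1, or 11.1 times when each gene was scaled to the length of its principal transcript.

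The promoters of both neuronal genes and of DPF2 are printed beside each other because DPF2 was the highest and ACTL6B the lowest of these 3 genes in level. They come from RefSeq (GRCh38.p14), with capitals for GC boxes as above, at chr7:100656399-100656698 (minus strand) for ACTL6B, chr19:38229646-38229945 (minus strand) for DPF1 and chr11:65333602-65333901 (plus strand) for DPF2.
ACTL6B promoter: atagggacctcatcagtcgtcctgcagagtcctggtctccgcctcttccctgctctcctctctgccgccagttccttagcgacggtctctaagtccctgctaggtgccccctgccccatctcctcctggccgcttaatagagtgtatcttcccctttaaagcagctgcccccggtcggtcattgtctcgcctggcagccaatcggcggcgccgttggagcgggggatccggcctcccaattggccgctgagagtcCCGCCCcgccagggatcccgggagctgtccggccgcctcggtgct
DPF1 promoter: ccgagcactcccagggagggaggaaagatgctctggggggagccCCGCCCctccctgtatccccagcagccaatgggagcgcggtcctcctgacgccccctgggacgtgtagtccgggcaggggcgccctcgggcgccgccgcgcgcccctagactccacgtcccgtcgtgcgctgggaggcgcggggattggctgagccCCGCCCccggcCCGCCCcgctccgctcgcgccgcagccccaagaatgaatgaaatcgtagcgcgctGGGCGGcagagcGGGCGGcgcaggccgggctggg
DPF2 promoter: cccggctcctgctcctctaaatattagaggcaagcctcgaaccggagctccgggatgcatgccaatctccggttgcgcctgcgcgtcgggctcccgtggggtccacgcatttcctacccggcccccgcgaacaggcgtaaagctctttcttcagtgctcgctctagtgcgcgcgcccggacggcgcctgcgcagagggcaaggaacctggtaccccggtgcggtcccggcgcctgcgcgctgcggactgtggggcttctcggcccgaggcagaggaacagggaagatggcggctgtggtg
ACTL6B and DPF1 hold 1 and 5 GC boxes and 22 and 36 CpG, and DPF2 holds 0 GC boxes and 33 CpG, so the order of these features is not the order of the levels. The table held 8 of the 10 genes. On either strand, the GC box was in 7 of the 8 windows and in 45% of all windows, the E-box CACGTG, the site of MYC-family factors, in 0 of 8 and 7.3%, and TTCAGCACC (or GGTGCTGAA), the left part of the RE1 element bound by REST, in 0 of 8 and 0.4%. A match or its absence describes these letters in these windows only.

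**Figure D3:**
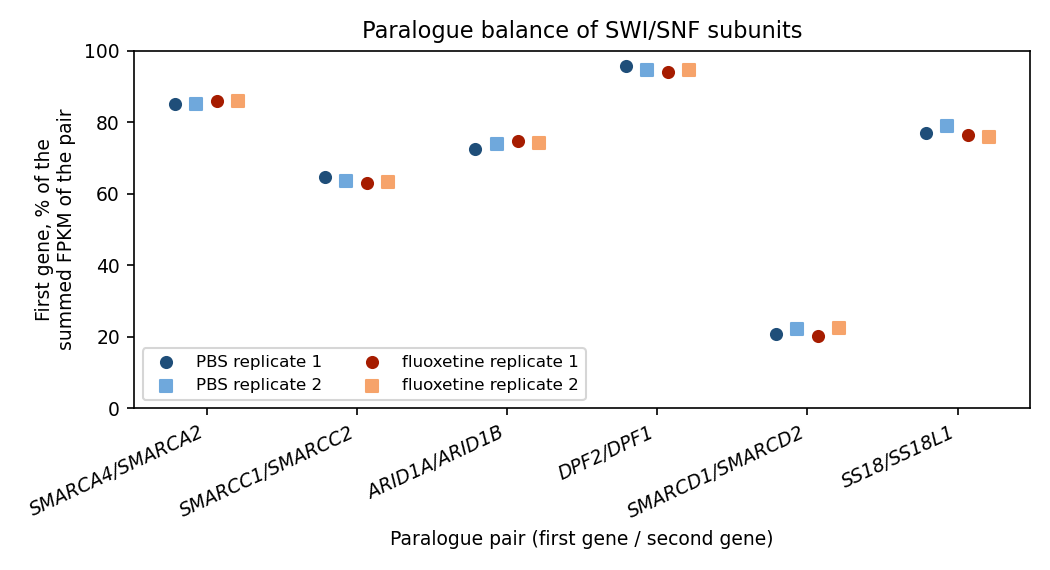
Share of the first gene in the summed FPKM of 6 paralogue pairs (vertical axis, percent, from 0) in each library, with blue for PBS and red or orange for fluoxetine. SMARCA4 makes up 85.2% to 86.1% of its pair and DPF2 93.9% to 95.7%, and the shares of ARID1A (72.4% to 74.9%) and SS18 (75.7% to 79.1%) in their pairs lie next to each other.

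SS18L1, the neuronal counterpart of SS18, was the exception among the neuronal forms in level. It was measured at 8.89 and 9.05 FPKM under PBS and 8.47 and 9.38 under fluoxetine, with a log2 fold change of -0.01 (SE 0.09, limma adjusted p = 0.987). SS18 stood at 29.9 and 34.2 FPKM under PBS and 27.3 and 29.3 under fluoxetine, a log2 fold change of -0.18 (SE 0.08, limma adjusted p = 0.579). SS18 made up 77.1% and 79.1% of the pair under PBS and 76.3% and 75.7% under fluoxetine (exact permutation p = 0.333). DPF3, picked out after its values were seen, had 34 and 70 reads under PBS and 87 and 63 under fluoxetine, with a log2 fold change of 0.28 (SE 0.42). Its mean of 0.121 FPKM rests on a long gene model, and would be 1.62 FPKM if all its reads came from its principal transcript. Where the reads fell within the gene was not examined.

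Of the 21 other SWI/SNF subunits listed, 20 were tested and 0 passed an adjusted p under 0.05 in limma or with voom. Their median log2 fold change was -0.01, with 14 of 20 below 0, against 56.5% of all genes tested. The fluoxetine values were all under the PBS values for 4 genes, against 24.8% of all genes, and all over them for 2, against 16.7%. At an unadjusted p under 0.05 there was 1 of 20, PBRM1, the polybromo subunit of the PBAF form, against 8.51% of all genes. Voom gave 3 of 20, PBRM1, SS18 and BICRA, against 10.7%. PBRM1 stood at 21.0 and 21.3 FPKM under PBS and 17.6 and 19.8 under fluoxetine (log2 fold change -0.18, SE 0.08, limma adjusted p = 0.579). The other large differences were those of BICRA, a subunit of the non-canonical form, at -0.22, and BCL11A, a zinc finger protein found with BAF, at -0.19, with limma adjusted p of 0.625 and 0.674.

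The differences between replicates bounded what could be seen. In 12 of 18 replicate pairs of the 9 tested subunits the log2 difference was over 1.96 counting errors, so library differences beyond counting were present. Replicate 2 was higher than replicate 1 in both groups for 8 of 9 subunits, all but DPF1, against 28.4% of all genes tested and 44.2% of the 4467 genes of at least 5000 bases. The difference between groups was larger than both replicate differences for 2 of 9 subunits, SMARCA2 and SMARCB1. The share of all genes tested with this pattern was not computed, so the count does not set these 2 apart from other genes. ARID1A differed between replicates by 0.19 and 0.26, ARID1B by 0.07 and 0.30, and SMARCB1 by 0.01 and 0.02.

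**Figure D4:**
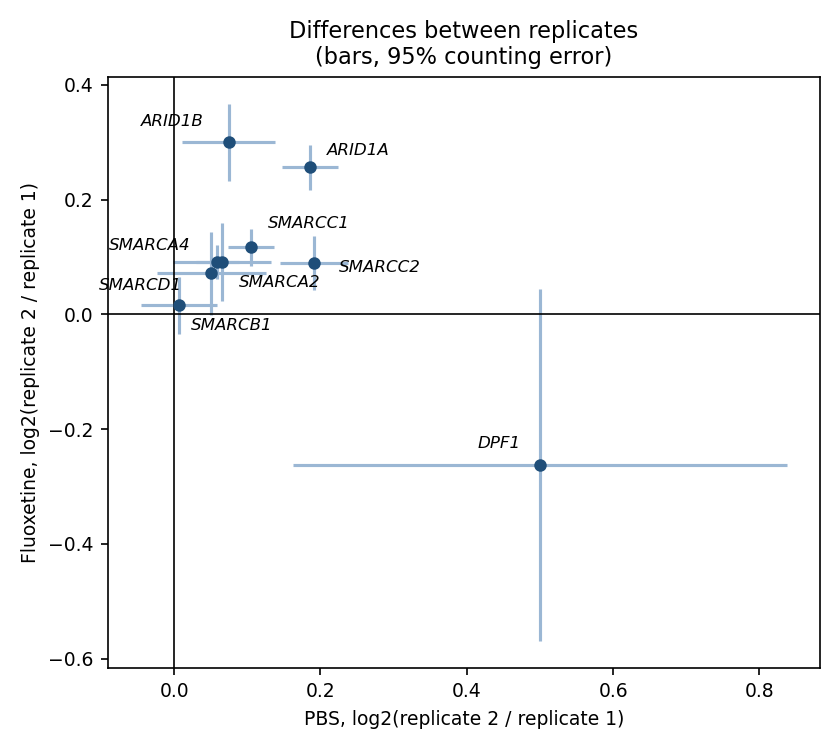
Log2 ratio of replicate 2 to replicate 1 under PBS (horizontal axis) and under fluoxetine (vertical axis) for the 9 tested subunits, with bars for the 95% counting error. All genes but DPF1 lie above 0 on both axes, ARID1B reaches 0.30 under fluoxetine, and DPF1 lies at 0.50 and -0.26.

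Gene length moved with these differences. Fluoxetine replicate 1 had relatively lower values for long genes, with a correlation across genes of -0.284 between its deviation from the mean of the 4 libraries and log2 length, against 0.046 to 0.189 for the others. Of the 10 subunits, 7 have at least 5000 bases of gene length behind the FPKM, and 6 of these 7 lay below 0 in log2 fold change. All 4467 tested genes of at least 5000 bases had a median of -0.08, so lying below 0 was not particular to these subunits. Across the 48 genes of the SWI/SNF and other remodeller lists with a mean of at least 1 FPKM, which share the same 4 libraries, Pearson's r between log2 fold change and log2 length was -0.663, against -0.197 across all 12634 genes tested with a length. With the length trend of each library removed, r across the 48 was -0.248, the median of the 9 subunits went from -0.05 to -0.01, ARID1B from -0.21 to -0.12 and SMARCA4 from -0.02 to 0.04. SMARCB1 became 0.14 with an unadjusted limma p of 0.0414, and 0 of 9 passed after adjustment.

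Genes of the other ATP-dependent remodeller families (ISWI, CHD and INO80 or SRCAP) did not pass either, with 0 of 24 tested at an adjusted p under 0.05 in limma. At an unadjusted p under 0.05 there were 2 of 24, against 8.51% of all genes, namely CHD6 and CHD9, named after their values were seen, at -0.25 and -0.30. Voom gave 0 of 25 adjusted and 6 of 25 unadjusted, against 10.7% of all genes. Their median log2 fold change was -0.13 with 22 of 24 below 0, from -0.42 for CECR2 to 0.06 for RUVBL2, against 56.5% of all genes tested below 0. CECR2 was a low gene, with a mean of 0.465 FPKM and an SE of 0.26 (limma adjusted p = 0.636). The median length of the genes of these families was 9460 bases, and the median log2 fold change of all tested genes of at least 5000 bases was -0.08. With the length trend removed the median was -0.04 and 15 of 24 lay below 0. Whether these families differ from SWI/SNF was not tested.

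Paralogues shared none of their 75-base exon stretches in any of the 8 pairs compared, so an exact match of a read at least this long could not be to both. Of the 10 subunits, 5 overlap a gene on the opposite strand, and whether the authors' counting used strand is not given in the sources used here.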

How the data were processed

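RNA of LASCPC-01 cells was sequenced under PBS and under fluoxetine, with 2 libraries each, grouped by the treatment label (titles of the fluoxetine libraries carry "PP"). The authors deposited FPKM, 1 value per gene and library. Per the submitters' processing notes the tools were fastp, HISAT2 and HTSeq with GRCh38, and the annotation is not given in the sources used here. The labels name a TruSeq Stranded mRNA kit and the study's text a VAHTS kit. The study names DESeq2, which needs counts and was not used.

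Genes with a mean of at least 0.1 FPKM were tested with limma 3.58.1 in R 4.3.3 (variance trend, Benjamini-Hochberg) on log2(FPKM + 0.1). Paralogue ratios were compared by exact permutation. Whole reads were recovered from the FPKM for 99.82% of the 16080 genes above 0 (within 0.004 of a whole number), the depth being the value shared by 81 genes at their GENCODE 29 exon length, and were tested with voom. The errors given for read numbers cover counting only, and the true read numbers can be multiples of those given. The replicates differed beyond sampling noise (chi-square per degree of freedom 9.42 and 11.6). Gene coordinates, exon stretches and principal transcript lengths came from GENCODE 29, and promoters from RefSeq. The gene lengths behind the FPKM, used for the length trend, were solved from the FPKM together with the reads. The read recovery and the limma test were tried on simulated data made without a length trend between libraries, so these trials do not cover that trend. Python 3.11.15 was used for the rest.

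The subunits and lists were chosen with earlier results of these data known. Some cell type marker genes are not reported here and were left out of the marker sums. Named genes were all 10 subunits, other subunits in a paralogue pair, any called and the 3 largest absolute changes with a mean of at least 1 FPKM, and, of other families, any called and both extremes. Alternatives covered the pseudocount, filter, scaling, moderation, length trend, replicate block, voom and each library left out, and the length trend with the block and the principal transcript length were chosen after seeing the data.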

Additional observations from a re-analysis of the deposited data

How the results depend on the processing

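The 9 tested subunits, the other subunits and the other families had 0 genes at an adjusted p under 0.05 in limma under all 17 alternatives, and the smallest adjusted p of any of the 9 was 0.298, for ARID1B without fluoxetine replicate 2. Of 153 fold changes of these 9, 9 changed sign, in 5 subunits. SMARCA4 was 0.0093 under median centring and 0.038 with the length trend removed, also with the replicate block, and SMARCD1 was -0.0042 as TPM. Leaving out each library gave -0.063 to 0.029 for SMARCA4, -0.15 to 0.045 for SMARCC2, -0.24 to 0.014 for ARID1A and -0.036 to 0.44 for DPF1. The SMARCA4 to SMARCA2 log2 ratio difference was 0.087 with the length trend removed and 0.095 to 0.101 with each library left out. For 4 other pairs, leaving out a PBS library moved the difference most, to -0.020 (without PBS replicate 1) and -0.11 (without PBS replicate 2) for SMARCC1/SMARCC2, 0.047 and 0.16 for ARID1A/ARID1B, -0.090 and -0.42 for DPF2/DPF1 and -0.25 and -0.085 for SS18/SS18L1. SMARCD1/SMARCD2 ran from -0.11 without fluoxetine replicate 2 to 0.082 without fluoxetine replicate 1, and was 0.011 with the length trend removed. All genes tested had 30 calls, against 0 with no filter, 0 with no variance trend, 16 with quantile normalization, 54 with voom and 2 to 12 with each library left out. With the replicate number as a block (replicate block) the count was 64, and the 9 subunits had 0 calls and a smallest adjusted p of 0.396. The numbers were not shown to pair libraries, since same-numbered deviations correlated by 0.035. The causes were not tested. Depth limits ACTL6B and SMARCD3, which had 2 and 14 reads in all.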
